A study of Saccharomyces cerevisiae with 134 samples.

Results

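The H3K36me3 mark that remained on yeast genes after 90 min of darkness was compared with the mark in cells that had been kept in the dark throughout. Set2 is the only enzyme of budding yeast that methylates lysine 36 of histone H3. It rides on elongating RNA polymerase II and leaves the trimethylated form (H3K36me3) over gene bodies, where the mark recruits the Rpd3S deacetylase and keeps transcription from starting inside genes. Demethylases such as Rph1 and the exchange of histones remove it again. All cells of the groups compared were of the BY4741 strain, a MATa laboratory strain, carried a deletion of SET2 (set2Δ), and expressed LANS-Set2, a Set2 fusion that blue light brings into the nucleus and darkness lets out. They were grown at 30 °C in synthetic medium without leucine. The cells of the 90 min group (3 libraries) were held in blue light until a first collection and were then moved to the dark for 90 min. The constant dark cells (3 libraries) were held in the dark during all of culture and are the starting point of the study's opposite course, from dark to light. These are 6 of the 134 samples of the study, and every gene with a value in all 6 was considered. Other LANS-Set2 groups are set beside them: constant light, 30 and 60 min of dark, and 60 min of light after constant dark. A strain that lacks RPH1 as well as SET2 (rph1Δ set2Δ) is also shown, in constant light and at 90 min dark. The promoter that drives LANS-Set2 is not given in the sources used here, and the H3K36me3 tables used here hold no value for SET2 itself. Nothing says whether replicates came from separate cultures, so p-values measure only the spread between these libraries, which may be technical.

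Each deposited value is 1 signal per gene and library in a unit that is not stated, and read depth is unknown. The groups come from separate tables, and how the tables were scaled to each other is not stated either. The median gene had a signal of 0.0406, 0.0474 and 0.0436 in the 90 min dark libraries, against 0.0213, 0.0244 and 0.0217 in the constant dark libraries. On this deposited scale the ratio of 90 min dark to constant dark had a median of 1.90 over genes, with 90% of genes between 1.30 and 2.54, and the light to dark course alone fell to 43.3% of its constant light value at the median gene (5th to 95th percentile over genes 35.7% to 54.5%). The question here is which genes stood above or below the rest, so each library was divided by its own median gene, and 4813 of 5348 complete genes passed a filter on low values. Values on that scale are called relative levels: 1 is the level of the median gene of the same library. A log2 difference is the mean log2 of the relative level plus 0.1 at 90 min dark minus that in constant dark. Ranks of genes correlated at 0.965 to 0.976 (Spearman's rho) between the 90 min dark libraries, at 0.929 to 0.962 between the constant dark libraries and at 0.895 to 0.929 across the groups.

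Relative to the median gene, 727 genes (15.1% of those tested) were higher at 90 min dark than in constant dark and 840 (17.5%) were lower, at an adjusted p under 0.05 in limma's moderated test with Benjamini-Hochberg adjustment. Most differences were small. The middle 90% of log2 differences ran between -0.52 and 0.35, which is 0.699-fold to 1.28-fold, with a median standard error of 0.09. Of the genes called, 42 were higher and 240 lower by more than 0.5 on the log2 scale. By more than 1, the pair of near-identical hexose transporter genes HXT6 and HXT7 was higher and 7 genes were lower. The values of this pair are uncertain, as given below. Library values did not overlap between the groups for 721 of the 727 higher and 827 of the 840 lower genes. Over all genes tested, called or not, 23.5% had all 90 min dark libraries above and 26.4% had all of them below constant dark. Higher genes made up 46.4% of the calls, 26.2% when libraries were divided by the median of genes above the 50th percentile and 57.7% after quantile normalization, so the balance of the directions rests on the scaling. On the deposited scale 4643 genes were higher and 2, HES1 and the subtelomeric YBL111C, were lower; every "lower" that follows therefore means lower relative to the median gene, and only HES1 among the named genes was also called lower in deposited signal.

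The genes that stood furthest above constant dark came from several pathways. WSC4 encodes a cell wall stress sensor. Its relative level was 1.79, 1.77 and 1.45 at 90 min dark, against 0.843, 0.865 and 0.840 in constant dark, a log2 difference of 0.89 ± 0.08 (SE, adjusted p = 0.00258). All 90 min dark libraries lay well above all constant dark libraries. RPI1, a regulator tied to Ras signalling and the cell wall, had 1.36, 1.18 and 1.13 at 90 min dark, against 0.725, 0.664 and 0.761 in constant dark (log2 difference 0.69 ± 0.08 SE, adjusted p = 0.00328). SUL1, the high-affinity sulfate permease, had 0.938, 1.06 and 0.939 at 90 min dark, against 0.663, 0.534 and 0.531 in constant dark (log2 difference 0.68 ± 0.10 SE, adjusted p = 0.00427). Groups did not overlap for any of these 3 genes, as the rule for naming genes required. SUL1 RNA went the other way, with a mean of 0.912 TPM at 90 min dark and 3.57 TPM in constant dark (adjusted p = 0.0212, limma). In bulk samples fewer cells that express a gene and less RNA per cell cannot be told apart.

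Next among the higher genes were FLO11 and FLO1, the flocculins that make cells stick to surfaces and to each other, at log2 differences of 0.61 and 0.60. Both genes carry internal repeats, and FLO1 has relatives elsewhere in the genome, so their values are uncertain. FLO11 reached the mean level of 0.5 that naming required only through 90 min dark (mean 0.663, against 0.401 in constant dark). SFG1, a regulator of pseudohyphal growth, differed by 0.60 with a mean relative level of 2.75 at 90 min dark and 1.79 in constant dark. The spindle genes SPC42 (spindle pole body) and SLI15 (the activator of Aurora kinase) both differed by 0.57, CBP1 (stability of a mitochondrial messenger) by 0.58, VBA4 (a vacuolar transporter) by 0.59 and TPO1 (a polyamine exporter) by 0.55. Adjusted p-values of these 8 genes ran between 0.00274 for SLI15 and 0.0222 for FLO1 in the limma test. HXT6 and HXT7, at 1.37 each, and RDS1, at 0.63, passed the same threshold but are uncertain. Reads of the HXT pair may be shared, and RDS1 lies near the end of chromosome III. HXT6 and HXT7 reached the mean level of 0.5 only through 90 min dark (means 1.1 and 1.16, against 0.388 and 0.407 in constant dark). Their libraries were uneven, with HXT6 at 0.98, 1.55 and 0.77 at 90 min dark, against 0.16, 0.62 and 0.38 in constant dark. Of genes with no less than the median level, NUP145 (nuclear pore), LTV1 (ribosome export) and RPL6B (ribosome) were closest to no difference, with log2 differences of 0.000156, 0.000199 and -0.000378.

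**Figure D1:**
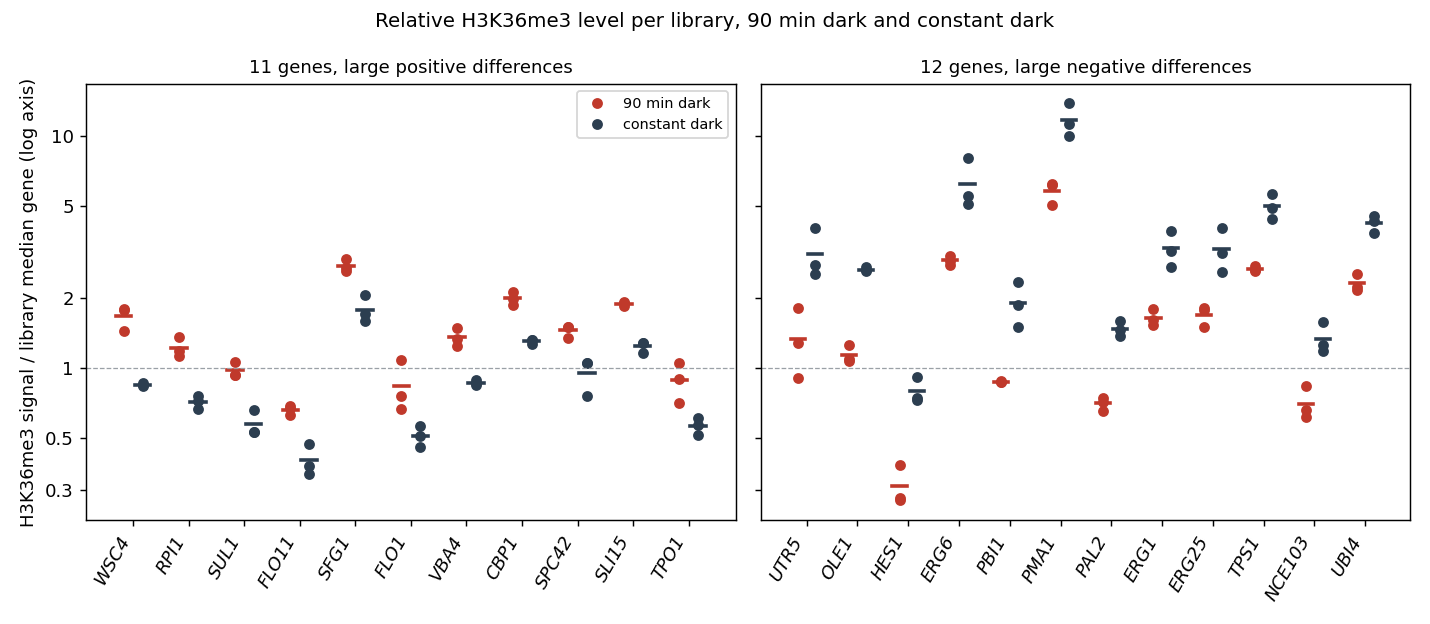
Relative H3K36me3 level (signal divided by the library's median gene, log axis) of 11 genes with large positive and the 12 with the largest negative log2 differences, with 1 point per library and a bar at the mean of 3; 90 min dark is red and constant dark is dark blue. Genes were drawn only if their groups did not overlap, so the separation was fixed by that choice. WSC4 stood at 1.45 to 1.79 against 0.840 to 0.865 and OLE1 at 1.07 to 1.25 against 2.60 to 2.71. Both directions are relative to the median gene.

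The genes furthest below constant dark included several of membrane lipids, 1 of trehalose synthesis and the polyubiquitin gene. OLE1 encodes the only fatty acid desaturase of yeast. Its relative level was 1.07, 1.10 and 1.25 at 90 min dark, against 2.65, 2.60 and 2.71 in constant dark, a log2 difference of -1.15 ± 0.07 (SE, adjusted p = 0.000358). HES1, an oxysterol-binding protein, had 0.384, 0.270 and 0.276 at 90 min dark, against 0.728, 0.741 and 0.916 in constant dark (log2 difference -1.13 ± 0.14 SE, adjusted p = 0.00328). These HES1 values at 90 min dark are far below the median gene, while those of constant dark are close to it. HES1 reached the mean level of 0.5 that naming required only through constant dark (mean 0.795, against 0.310 at 90 min dark). ERG6, a late enzyme of ergosterol synthesis, had 2.79, 2.89 and 3.05 at 90 min dark, against 5.06, 5.50 and 8.01 in constant dark (log2 difference -1.03 ± 0.16 SE, adjusted p = 0.00446). Constant dark replicate 3 was the highest library for ERG6, and the other constant dark libraries were also above every 90 min dark library.

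PMA1, the proton pump of the plasma membrane, had the highest relative level in constant dark among the genes named: 5.05, 6.22 and 6.12 at 90 min dark, against 11.2, 9.94 and 13.7 in constant dark (log2 difference -0.99 ± 0.16 SE, adjusted p = 0.00555). TPS1, which makes trehalose phosphate, had 2.64, 2.74 and 2.63 at 90 min dark, against 4.39, 4.90 and 5.62 in constant dark (log2 difference -0.87 ± 0.10 SE, adjusted p = 0.00308). UBI4, the polyubiquitin gene, had 2.22, 2.17 and 2.55 at 90 min dark, against 3.83, 4.29 and 4.50 in constant dark (log2 difference -0.84 ± 0.09 SE, adjusted p = 0.00274). Its repeated ubiquitin units resemble those of RPL40A, RPL40B and RPS31, so its level is uncertain. The remaining named genes were UTR5 (-1.19), PBI1 (-1.02), PAL2 (an endocytic coat protein, -0.97), ERG1 (-0.94), ERG25 (-0.88) and NCE103 (carbonic anhydrase, -0.84). UTR5 was the least even of them, at 0.910, 1.81 and 1.28 at 90 min dark, against 4.001, 2.78 and 2.55 in constant dark. Its RNA averaged 0.33 TPM at 90 min dark and 0.23 TPM in constant dark, too low for the RNA test. The relative level of this gene is therefore uncertain.

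Ergosterol is the sterol of yeast membranes. The early, mevalonate part of its pathway makes isoprenoid units, and the late part closes and trims the sterol rings. Of 23 pathway genes listed, 20 were tested, of which 11 were lower at 90 min dark than in constant dark and 0 were higher, against 17.5% lower and 15.1% higher over all genes tested by limma. At an unadjusted p under 0.05 the counts were 13 lower and 0 higher, while 2206 of all 4813 genes tested had such a p in either direction. The list's median log2 difference was -0.41, against -0.04 for all genes. The lower genes are nearly all of the late part: after ERG6, ERG1 (squalene epoxidase) and ERG25 came ERG11 (the target of azole drugs, -0.83), ERG3 (-0.80), ERG5 (-0.74), ERG2 (-0.53), ERG4 (-0.41) and ERG24 (-0.40). ERG9 (squalene synthase, -0.41) stands at the branch to sterols, and ERG10 (-0.77), which joins acetyl units, is the 1 gene of the early part that was called. The other early genes had log2 differences between -0.25 (IDI1) and 0.13 and did not pass, with HMG1 and HMG2, the paired reductases that set the rate of the pathway, at -0.05 and 0.13. Leaving out any 1 library left 10 to 14 genes lower and 0 higher. In RNA, 2 of the 20 were higher at 90 min dark and 0 lower by limma, against 1.95% higher over all genes. Their median log2 RNA difference was 0.30, and 0 to 11 were higher with 1 library left out.

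The sterol pathway is switched on by Upc2 and Ecm22, which bind a sterol response element with the core TCGTATA. The windows below are shown because the genes that carry them are late-pathway genes with lower relative marks. The core was searched on both strands in the 500 bases before each coding start of the R64 genome (RefSeq, the sacCer3 assembly), and 7 of the 20 pathway genes hold it (35.0%), against 321 of 4727 genes (6.79%). Of the 11 pathway genes that were lower, 5 hold it. Whether the core bears on the mark was not tested. Capitals mark the core, which is read 5′ to 3′ on the strand named. The ERG1 site lies at chrVII:848790-848814 on the minus strand and the ERG6 site at chrXIII:253407-253431 on the minus strand. ERG25 and ERG3 hold 2 copies each, of which 1 is shown: that of ERG25 lies at chrVII:610092-610116 and that of ERG3 at chrXII:253566-253590, both on the plus strand. These windows are upstream of the gene bodies on which the mark was measured.
ERG1: agcgggcctTCGTATAgctcggccg
ERG6: ccccgatctTCGTATAtggtacctc
ERG25: acacagagaTCGTATAcggtaaacg
ERG3: aattcaggcTCGTATAagtggcaca

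The proteasome, which breaks down proteins tagged with ubiquitin, showed the same direction over a different set of genes. Of 32 genes tested (31 subunits and RPN4, the transcription factor of the proteasome genes), 14 were lower at 90 min dark and 0 higher by limma (17.5% and 15.1% over all genes tested). At an unadjusted p under 0.05 the counts were 19 lower and 0 higher, against 2206 of 4813 genes in either direction. The median log2 difference was -0.26, against -0.04 for all genes. RPT4, an ATPase of the base, had 2.63, 2.60 and 2.67 at 90 min dark, against 4.30, 4.37 and 5.39 in constant dark (log2 difference -0.80 ± 0.10 SE, adjusted p = 0.00328). RPN4 had 3.62, 3.47 and 3.54 at 90 min dark, against 4.90, 5.25 and 5.96 in constant dark (log2 difference -0.58 ± 0.09 SE, adjusted p = 0.00494). The scaffold subunits RPN1 and RPN2 differed by -0.38 and -0.41 and the lid subunits RPN5 and RPN6 by -0.62 and -0.51, while the catalytic subunits PRE2 and PUP1 had -0.11 and -0.12 and did not pass. The count moved with the libraries and the scaling, between 7 (without 90 min dark replicate 2) and 20 (without constant dark replicate 1), and it was 8 without 90 min dark replicate 1 or 3, 22 after quantile normalization and 27 with the scaling to genes above the 50th percentile. No proteasome gene was higher in any of these.

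Rpn4 binds a promoter element with the letters GGTGGCAAA. That element, searched in the same windows on both strands, is held by 26 of the 32 genes (81.2%), against 78 of 4727 genes (1.65%). It is held by 11 of the 14 that were lower, a share near that of the whole list, so it does not set the lower genes apart. Whether the element bears on the mark was not tested. The windows shown for either motif hold no copy of the other. The windows below belong to the lower genes with the smallest p that hold the element, again with the element in capitals. RPT4 has it at chrXV:813803-813829 and RPN5 at chrIV:190777-190803, both on the plus strand, and PRE10 at chrXV:1018857-1018883 and RPN6 at chrIV:286791-286817, both on the minus strand. It stands 103 to 129 bases before the coding start in these 4 genes.
RPT4: tttcccttcGGTGGCAAAttccactat
RPN5: tgacttttcGGTGGCAAAatgcaaagg
PRE10: ctctaaatcGGTGGCAAAaataagaaa
RPN6: ggttccaagGGTGGCAAAtgttggtag

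Genes of protein folding and of stress stores were also lower. Of 19 chaperone genes tested, 14 were lower at 90 min dark and 0 higher by limma, against 17.5% lower and 15.1% higher over all genes. At an unadjusted p under 0.05, 14 were lower and 1 higher, against 2206 of 4813 genes in either direction. The list's median log2 difference was -0.45, against -0.04 for all genes. HSP82, the inducible Hsp90, had 2.69, 2.75 and 2.94 at 90 min dark, against 4.30, 4.38 and 5.73 in constant dark (log2 difference -0.75 ± 0.11 SE, adjusted p = 0.00446). HSP78, the mitochondrial disaggregase, had 2.40, 2.47 and 2.52 at 90 min dark, against 3.39, 3.91 and 4.17 in constant dark (log2 difference -0.61 ± 0.08 SE, adjusted p = 0.00408). KAR2 of the endoplasmic reticulum (-0.60) and HSP60 of mitochondria (-0.45) were lower as well, whereas the heat-induced SSA4 (0.02) and SSA3 (0.16) did not pass. The copies SSA1 and SSA2, and HSC82 and HSP82, are close paralogs and their separate values are uncertain. Without any 1 of the 90 min dark libraries the count fell to 6 or 7, while it was 11 to 13 without 1 constant dark library.

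Of 21 genes of the general stress response and reserve carbohydrates, 17 were lower at 90 min dark and 0 higher by limma. Over all genes tested, 17.5% had a lower and 15.1% a higher mark. At an unadjusted p under 0.05, 18 were lower and 0 higher, against 2206 of 4813 genes in either direction. The list's median log2 difference was -0.42. The list includes the trehalose enzymes TPS1, TPS2 (-0.62) and TSL1 (-0.46), and the glycogen enzymes GLC3 (-0.64), GSY2 (-0.45) and GSY1 (-0.42). GLC3, the branching enzyme, had 0.828, 0.723 and 0.794 at 90 min dark, against 1.23, 1.36 and 1.25 in constant dark. Catalase (CTT1, -0.19) and DDR2 (-0.08) did not pass. Leaving out 1 library left 13 to 17 lower, and quantile normalization left 9. Their RNA stood in the opposite direction: 9 of the 21 were higher in RNA at 90 min dark than in constant dark (limma on log2(TPM + 1)), against 1.95% higher over all 5886 genes tested, with a median log2 difference of 0.79. DDR2 RNA differed by 0.90 (adjusted p = 0.00383), ALD3 by 1.56 (adjusted p = 0.0141) and TSL1 by 0.82 (adjusted p = 0.0318). The RNA count rests on single libraries: it was 1 without constant dark replicate 2 or 3 or without 90 min dark replicate 2, 2 without constant dark replicate 1 or 90 min dark replicate 3, and 17 without 90 min dark replicate 1, while the median stayed between 0.62 and 0.89.

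Lists of energy and amino acid metabolism were uneven. Of 31 genes of the respiratory chain and ATP synthase, 17 were lower (17.5% over all genes tested) and 1, the external NADH dehydrogenase NDE1 (0.22), was higher, with a median of -0.30. Their median relative level was 0.661 at 90 min dark and 0.920 in constant dark. COX5A, a subunit of cytochrome oxidase, had 0.637, 0.681 and 0.606 at 90 min dark, against 0.941, 1.06 and 1.00 in constant dark. ATP17, of the ATP synthase, had 0.589, 0.598 and 0.580 at 90 min dark, against 0.931, 0.961 and 0.869 in constant dark. Leaving out 1 library gave 10 lower genes (constant dark replicate 2 or 90 min dark replicate 3) to 16. In RNA, 4 of these 31 genes were higher at 90 min dark and 0 lower by limma, against 1.95% higher over all genes. Their median log2 RNA difference was 0.27, and 0 to 12 were higher with 1 library left out. Of the biosynthesis lists, 5 of 9 arginine genes, 4 of 8 lysine genes, 6 of 12 aromatic and histidine genes and 3 of 8 branched-chain genes were lower. By limma 0 genes of these 4 lists were higher, and 1, of the aromatic and histidine list, was higher at an unadjusted p under 0.05. ARG7, an ornithine acetyltransferase of mitochondria, had 0.812, 0.673 and 0.802 at 90 min dark, against 1.16, 1.46 and 0.952 in constant dark. Here the RNA was lower as well: the RNA of 6 arginine, 5 lysine, 7 aromatic and histidine and 3 branched-chain genes was lower at 90 min dark, against 2.09% lower over all genes, and ARG1 RNA, for example, differed by -1.19 (adjusted p = 0.0141, limma). With 1 library left out, lower marks were counted for 2 to 4 arginine, 1 to 4 lysine, 2 to 8 aromatic and histidine and 1 to 4 branched-chain genes. The tricarboxylic acid cycle list had 1 higher and 2 lower of 12, with a median of -0.06, and the methionine and sulfur list had 3 higher and 5 lower of 16, with a median of -0.10. The RNA counts of the arginine, lysine, aromatic and branched-chain lists fell to 0 in at least 1 of the leave-one-out fits for each list.

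Ribosomal protein genes had more higher than lower calls. Of 116 tested, 27 were higher at 90 min dark and 3 lower (RPL41B, RPL15B and RPS9A), against 15.1% higher and 17.5% lower over all genes tested, with a median log2 difference of 0.11, against -0.04 for all genes, and 85 of the 116 differences were positive. RPS20 had 3.61, 3.60 and 3.32 at 90 min dark, against 2.08, 2.26 and 2.02 in constant dark (log2 difference 0.70 ± 0.07 SE, adjusted p = 0.00274). Others above 0.5 included RPL37B (0.68), RPS28B (0.61), RPS13 (0.55), RPL37A (0.52) and RPS31 (0.51). Most ribosomal proteins come from gene pairs that may share reads. The share depends on the choices: 71 were higher after quantile normalization, 46 without constant dark replicate 3, and 18 without 90 min dark replicate 1 or 2. Ribosome biogenesis genes had 5 higher and 0 lower of 39 by limma, a share of higher genes below that of all genes. At an unadjusted p under 0.05 they had 11 higher and 0 lower, against 2206 of 4813 genes in either direction. Their median was 0.12, with the export ATPase gene RIX7 at 0.42, and their count of higher genes ran between 1 and 11 over the leave-one-out fits. With the scaling to genes above the 50th percentile, 25 ribosomal protein genes were higher and 5 lower, and 3 biogenesis genes were higher and 5 lower. The cell cycle lists had 5 higher and 1 lower of 21 G1/S genes and 3 higher and 0 lower of 18 G2/M genes, against the same 15.1% and 17.5%, and the G1/S count of higher genes ran between 1 and 5 with 1 library left out and was 2 with that scaling. Among other lists were histones (0 higher and 3 lower of 10), lower glycolysis and fermentation (0 and 4 of 13), translation factors (1 and 1 of 17), purine and pyrimidine synthesis (2 and 3 of 18), hexose transporters (3 and 0 of 11), galactose and alternative carbon (2 and 0 of 10), the phosphate regulon (2 and 2 of 15), the iron regulon (4 and 3 of 16) and subtelomeric families (1 and 1 of 10). The 3 hexose transporter genes include the uncertain pair HXT6 and HXT7, which may share reads.

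**Figure D2:**
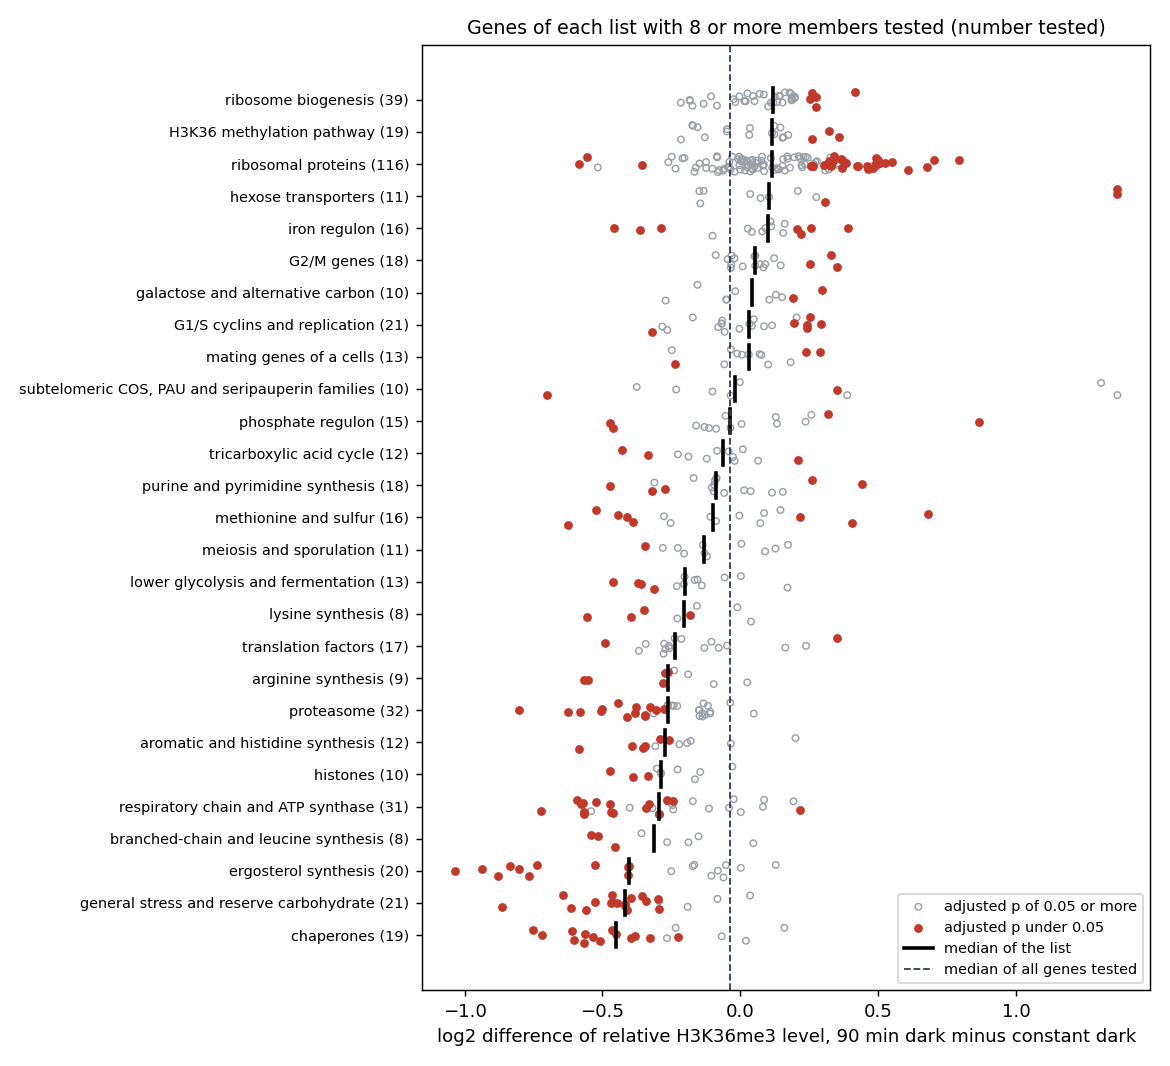
Log2 difference of the relative H3K36me3 level (90 min dark minus constant dark) of each member of the 27 lists with 8 or more genes tested; red points passed an adjusted p of 0.05, open points did not, black bars are list medians and the dashed line is the median of all genes (-0.04). Chaperones (-0.45), stress genes (-0.42) and ergosterol genes (-0.41) are at the bottom and ribosome biogenesis (0.12) is at the top; without division by the library median all of these list medians were above 0.

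The machinery that sets and reads the mark had a share of higher genes near that of all genes tested (15.1%). Of 19 genes of the H3K36 methylation pathway, 3 were higher (limma): the deacetylase RPD3 (0.36), its partner UME1 (0.32) and CDC73 of the Paf1 complex (0.26), none of them past the threshold in every leave-one-out fit, which gave 0 to 7. At an unadjusted p under 0.05, 4 were higher and 2 lower, against 2206 of 4813 genes in either direction. RPH1, the demethylase gene, had 0.888, 0.877 and 0.961 at 90 min dark, against 1.06, 0.978 and 0.970 in constant dark, and its log2 difference of -0.13 ± 0.07 (SE) did not pass (adjusted p = 0.177, limma). Among 5 genes known for cryptic promoters that open when the mark is lost, only FLO8 passed, with 1.65, 1.71 and 1.69 at 90 min dark, against 1.29, 1.33 and 1.44 in constant dark (log2 difference 0.30 ± 0.06 SE, adjusted p = 0.0104). SPB4 (0.24, adjusted p = 0.0509) and AVO1 (0.20, adjusted p = 0.0525) fell just short in the limma test. STE11, the kinase gene often used to detect such transcripts, did not pass, with 1.40, 1.37 and 1.35 at 90 min dark, against 1.39, 1.27 and 1.48 in constant dark, and the groups overlapped. The 11 meiosis genes that passed the filter on low values had a median relative level of 0.560 at 90 min dark and 0.578 in constant dark, with 1 (SPR28) lower. Of genes of a cells, 2 (AGA1 and BAR1) of 13 were higher and 1 lower. Of the MATalpha list, SAG1 and 1 other gene could be tested and SAG1 was higher, with a mean of 1.12 at 90 min dark and 0.890 in constant dark. URA3, which is deleted in BY4741, was listed at 0 TPM in both RNA groups and still had relative marks of 0.467, 0.509 and 0.558 at 90 min dark, against 0.683, 0.933 and 1.08 in constant dark. A relative level of this size was therefore read on a gene listed at 0 TPM, and all constant dark libraries were above all 90 min dark libraries. URA3 was itself called lower (log2 difference -0.69, adjusted p = 0.0113, limma), and its mean in constant light was 1.17. Calls on other genes at relative levels of this size, up to about the median gene, are therefore less certain. In either or both groups this covers HES1, FLO11, FLO1, SUL1, RPI1, GLC3, COX5A, ATP17 and ARG7, among others. It also covers WSC4 in constant dark and the medians of the respiratory chain list (0.661 at 90 min dark and 0.920 in constant dark).

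Differences over all genes tested varied with gene length. Genes under 500 bases had a median log2 difference of -0.28, with 4.26% higher and 33.1% lower, and genes of 3000 bases or more had 0.13, with 33.8% higher and 6.9% lower. Per library, the median log2 relative level of 1106 genes of 2000 bases or more exceeded that of 1904 genes under 1000 bases by 1.17, 1.21 and 1.19 at 90 min dark, against 0.76, 0.80 and 0.89 in constant dark. The groups did not overlap (difference 0.37), and the two-sided exact permutation test of 3 against 3 gave p = 0.1, the smallest it can reach. Within classes of constant light level the contrast of lengths differed in size: in the lowest of 3 classes the medians were 0.02 for long and -0.29 for short genes, and in the middle class 0.18 and -0.07. In the highest class they were 0.08 and 0.03, with quartiles of -0.08 to 0.20 for long and -0.11 to 0.22 for short genes, so the classes of length overlapped almost wholly there. By level in constant light, whose libraries share the table and course of the 90 min dark libraries and so are not independent of the comparison, the lowest 10% of genes had a median log2 difference of -0.33, the 7th of 10 classes 0.14, and the highest 10% -0.08. By RNA level the most expressed 10% of genes had -0.23, with 6.85% higher and 38.2% lower.

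**Figure D3:**
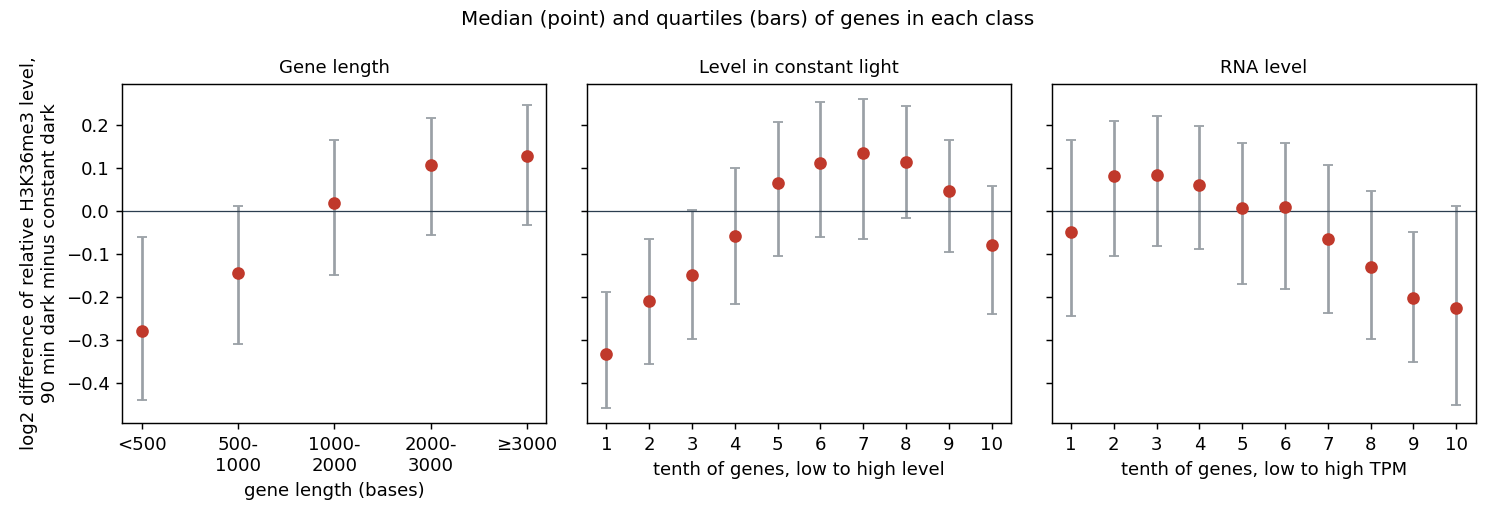
Median (points) and quartiles (bars) over genes of the log2 difference in relative H3K36me3 level, 90 min dark minus constant dark, by gene length in bases, by class of level in constant light and by class of RNA level (10 classes each, low to high). The median runs between -0.28 for genes under 500 bases and 0.13 for genes of 3000 bases or more, while over constant light levels it peaks in the 7th class at 0.14.

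The interquartile range of relative levels was wider at 90 min dark, whereas the range of the middle 90% of genes overlapped between the groups. The interquartile range of the log2 relative level was 1.28, 1.31 and 1.30 in the 90 min dark libraries, against 1.00, 1.09 and 1.18 in constant dark (difference 0.21, exact permutation p = 0.1, the smallest possible, two-sided). The log2 range between the 5th and 95th percentile was 2.73, 2.81 and 2.77 at 90 min dark, against 2.48, 2.70 and 2.89 in constant dark, whose replicate 3 was the widest of these 6 libraries. Constant dark libraries also differed more among themselves. Among genes above the 50th percentile of level the direction of the difference in interquartile range was reversed, at -0.07, with genes below that level left out. The difference between the genes with the most and the least RNA (10% each) was 1.08, 1.14 and 1.11 at 90 min dark, against 1.09, 1.37 and 1.34 in constant dark, and the groups overlapped (p = 0.3, exact permutation test). The difference between the highest and lowest 10% by constant light level was 2.70, 2.77 and 2.73 at 90 min dark, against 2.30, 2.54 and 2.75 in constant dark, again with overlap (p = 0.3, exact permutation test).

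The relative pattern at 90 min dark was closer to that of constant light than to that of constant dark. Mean profiles of 90 min dark and constant light, from the same course, correlated at 0.983 (Spearman's rho over genes), while 90 min dark and constant dark correlated at 0.935 and constant light and constant dark at 0.936. The same limma test of 90 min dark against constant light called 271 genes (5.63%), 132 higher (2.74%) and 139 lower (2.89%), against 32.6% for 90 min dark against constant dark. OLE1 had mean relative levels of 1.28 in constant light, 1.23, 1.16 and 1.14 after 30, 60 and 90 min of dark, and 2.65 in constant dark. WSC4 had 1.26, 1.37, 1.46 and 1.67 along the course and 0.849 in constant dark. HES1 stayed at 0.299, 0.326, 0.324 and 0.310 along the course, with 0.795 in constant dark. Over the 727 higher genes the median relative level was 1.49 in constant light, 1.50, 1.53 and 1.54 after 30, 60 and 90 min of dark, and 1.22 in constant dark. Over the 840 lower genes it was 0.679, 0.669, 0.695 and 0.685, with 0.954 in constant dark. The genes were chosen by the difference between 90 min and constant dark, so these medians are a description.

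The other end of the dark to light course bears on the same genes. After 60 min of light these cells had a median gene signal of 0.0983 ± 0.0144 (SD, n = 3), close to the 0.105 ± 0.013 of constant light, while OLE1 had a mean relative level of 3.50, HES1 1.51, ERG6 5.10 and TPS1 4.63, all above their constant light levels of 1.28, 0.299, 3.12 and 2.50. OLE1 and HES1 were then also above their constant dark means of 2.65 and 0.795, and ERG6 and TPS1 were below theirs of 6.19 and 4.97. WSC4 had 0.818 and SFG1 1.56 after 60 min of light, beside 1.26 and 2.57 in constant light. Constant light against 60 min of light shares no library with the main comparison and called 2407 genes (50.0%), 1301 of them higher in constant light (27.0%) and 1106 lower (23.0%). Of the 727 genes higher at 90 min dark, 80.3% had all constant light libraries above all 60 min light libraries, against 31.8% of all genes tested. Of the 840 lower genes, 61.7% had them all below, against 27.8% of all genes. The log2 differences of both comparisons correlated at 0.638 across 4813 genes (Spearman's rho, genes are not independent and libraries of a course share their table). Of the ergosterol genes, 19 of 20 were lower in constant light than after 60 min of light, as were 28 of 32 proteasome genes, and 106 of 116 ribosomal protein genes were higher. The course, its table and the long-term history of light or dark are the same split of the libraries and cannot be told apart, and 90 min dark cells were also collected later after the first collection than constant dark cells were.

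**Figure D4:**
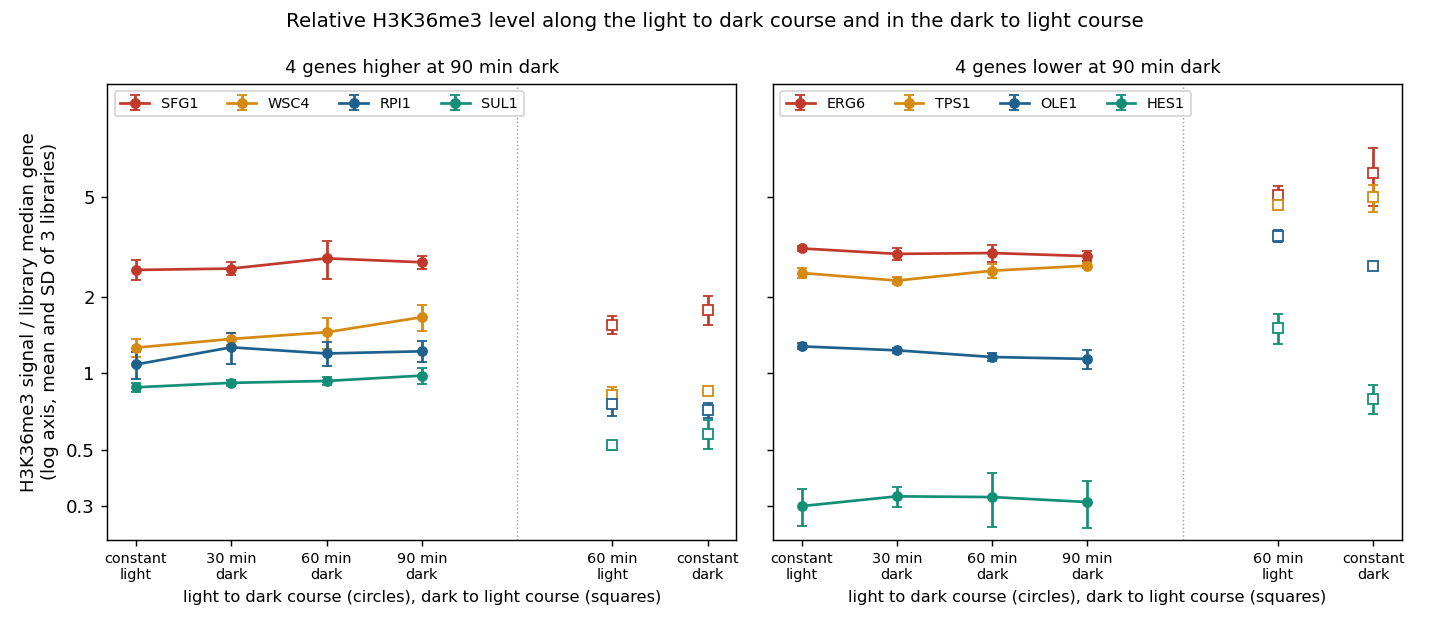
Mean relative H3K36me3 level (log axis, bars are SD of 3 libraries) of 4 genes higher and 4 genes lower at 90 min dark than in constant dark, along the light to dark course (circles) and in the dark to light course after 60 min of light and in constant dark (squares). OLE1 is nearly level along the light to dark course, between 1.14 and 1.28, and stands apart from both states of the other course, at 3.50 and 2.65, while WSC4 runs between 1.26 and 1.67 along the light to dark course.

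Among genes whose RNA differed between the groups, marks lower relative to the median gene outnumbered higher ones, whichever way the RNA went. Of genes whose RNA was higher at 90 min dark than in constant dark (115 of 5886, 1.95%), 68 had a tested mark, and of these 34 had a lower and 2, ZRT2 and RPM2, a higher mark (50.0% and 2.94%), with a median log2 difference of -0.27. Of genes whose RNA was lower (123, 2.09%), 101 had a tested mark, with 36 lower and 13 higher (35.6% and 12.9%) and a median of -0.24. Over all genes tested 17.5% had a lower and 15.1% a higher mark. With the scaling to genes above the 50th percentile these counts were 42 lower and 1 higher for RNA higher at 90 min dark, and 53 and 10 for RNA lower, while on the deposited scale 0 were lower in either class and 55 and 96 were higher. For RNA lower at 90 min dark, the lower marks numbered 17 without constant dark replicate 2 or 90 min dark replicate 2 and 18 without 90 min dark replicate 1. Across 4630 genes the log2 differences in RNA and mark correlated at -0.176 (Spearman's rho, a description). RNA calls in either direction made up 4.04% of genes and depended on single libraries: the test called between 4 and 667 genes higher and between 2 and 215 lower when 1 library was left out. The lowest counts came without 90 min dark replicate 2 and the highest without 90 min dark replicate 1.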

How the data were processed

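H3K36me3 ChIP-seq of LANS-Set2 set2Δ cells was used as deposited: 1 signal value per gene and library, in a unit that the sources used here do not give, nor how libraries or tables were scaled. Fission yeast chromatin was added as a spike-in, per the labels' protocols; whether it entered the values is not stated. RNA of the same states was used as the TPM values the authors deposited, with gene length (another unit). The submitters' processing notes name, without roles, the aligner STAR (2.5.2b, 2.5.4b), the quantifier Salmon (0.8.1), deepTools (2.5.4), bedtools (2.26) and SAMtools (1.3.1, 1.31), and the build sacCer3. Of 5355 genes in the tables, 5248 matched a locus of the R64 gene table.

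Each library was divided by its median gene. limma 3.58.1 (R 4.3.3; empirical Bayes with a variance trend, two-sided, Benjamini-Hochberg over all genes) was run on log2(relative level + 0.1) of the 6 libraries for genes whose mean level reached the 10th percentile, threshold 0.05. The pseudocount makes the differences of low genes understated. For RNA the same test used log2(TPM + 1), with a mean of at least 1 TPM required. Values per library were compared by exact permutation tests (scipy 1.17.1). The scripts were tested on simulated data. Correlations across genes carry no p.

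Genes named are the 12 largest positive and negative log2 differences among called, non-overlapping genes with a mean relative level of at least 0.5, a length of at least 500 bases and a standard name; genes of repeated families or within 20000 bases of a chromosome end are given as uncertain. Added were 3 genes nearest 0, the cryptic promoter genes, RPH1, and the 2 members of each called list with the smallest p, except 2 genes that are not reported here; list members beyond these, ZRT2, RPM2 and the motifs were chosen after their values were seen. All of the 31 lists, the members and the comparison were chosen with earlier results of these data known. The comparisons of 90 min dark with constant light and of constant light with 60 min of light were added after seeing the data. Replicate numbers did not pair the H3K36me3 libraries: same-number correlations of deviations were 0.048, 0.0063 and -0.083.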

Additional observations from a re-analysis of the deposited data

How the results depend on the processing

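Over 1581 alternatives of the 85 named genes, 1410 kept direction and side of the threshold, 118 kept the direction but no longer passed, 15 came to pass and 38 changed sign. All 38 changes of sign arose without scaling, where the whole table shifts upward, with log2 differences in deposited signal of ERG25 0.047, TPS1 0.074, NCE103 0.035, UBI4 0.10, RPL6B 0.95, STE11 0.89, HTA1 0.39, HHF1 0.49, PDC1 0.46, TDH3 0.61, TEF2 0.46, ILV5 0.40, ILV2 0.50, ARG7 0.30, LYS1 0.31, LYS2 0.58, ARO1 0.54, ARO3 0.33, MET13 0.28, ADE3 0.61, HSP78 0.33, HSP82 0.19, GLC3 0.23, ATP17 0.28, COX5A 0.29, MDH1 0.53, LSC2 0.39, ERG10 0.12, SPR28 0.49, VTC1 0.40, PHM8 0.39, FTR1 0.47, RPT4 0.14, RPN4 0.36, PAU6 0.11, URA3 0.15, LEU2 0.65 and RPH1 0.74.

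Counts of higher and lower genes were 483 and 1359 with scaling to genes at or above the 50th percentile, 4643 and 2 without scaling, and 310 lower genes with the filter at the 50th percentile, which tests fewer genes. Leaving out 1 library gave 400 to 804 higher and 481 to 899 lower genes. The counts moved by more than 1.5 times without constant dark replicate 2 (426 and 491) and without 90 min dark replicate 1 (418 and 494), 2 (400 and 481) or 3 (437 and 522). RNA counts ran between 4 and 667 higher and between 2 and 215 lower. The counts of 90 min dark against constant light ran between 22 and 95 higher and between 57 and 101 lower with 1 library left out. The difference in spread was 0.11 with a pseudocount of 1 and -0.067, reversed, with the filter at the 50th percentile. The difference by length was 0.21 with a pseudocount of 1 and 0.47 with the 5th percentile of each library subtracted first, an alternative chosen after seeing the data, which also moved the RNA contrast to -0.43. The causes were not tested beyond what the settings themselves change.

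With the replicate number as a block, 562 genes were higher and 679 lower in H3K36me3, and 282 and 268 in RNA. The numbers did not pair the H3K36me3 libraries. Same-number correlations of the RNA libraries were 0.157, 0.080 and 0.303, against -0.310 to 0.162 for different numbers. Whether the numbers pair the RNA libraries is therefore not settled, and the main RNA test treated them as unpaired. The unit and depth of the signal limit what levels mean, the groups come from separate tables and courses, and 3 against 3 libraries cannot give an exact p under 0.1.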

Other observations

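Part of the list of lower glycolysis and fermentation, which also holds upper glycolysis genes, was lower at 90 min dark than in constant light of the same table. Of 13 tested, 7 were lower and 0 higher in relative H3K36me3 (limma, against 2.89% lower and 2.74% higher over all genes; 2 were higher at an unadjusted p under 0.05), and 6 or 7 were lower with any 1 library left out. TDH3, the main glyceraldehyde phosphate dehydrogenase, averaged 1.75 ± 0.09 at 90 min dark and 2.84 ± 0.07 in constant light (SD, n = 3 each; log2 difference -0.67, adjusted p = 0.00118). PDC1, the main pyruvate decarboxylase, averaged 1.88 ± 0.07 at 90 min dark and 2.70 ± 0.12 in constant light (log2 difference -0.50, adjusted p = 0.00157). ENO2, TPI1, ADH1, FBA1 and TDH2 were the other lower genes, at -0.56, -0.49, -0.47, -0.37 and -0.26. The upper glycolysis genes PGI1, PFK1, PFK2 and HXK2 had 0.14, 0.11, 0.11 and -0.03 and did not pass. ENO1 (0.13) and PDC5 (0.15), of later steps, did not pass either. TDH2 and TDH3 are close copies and may share reads. This comparison was added after the values were seen.

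The strain that lacks RPH1 as well as SET2 was sampled in constant light and at 90 min dark, and no constant dark libraries of it were used here. At 90 min dark it had mean relative levels of 1.26 for OLE1, 0.432 for HES1, 2.33 for ERG6 and 2.29 for TPS1, on the same side of constant dark with RPH1 (2.65, 0.795, 6.19 and 4.97) as the strain that keeps RPH1. For WSC4 and SFG1 it had 1.44 and 2.22 at 90 min dark, beside 0.849 and 1.79 in constant dark with RPH1. These values come from another table and were not tested against the others.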
